A study of Mus musculus with 7 samples.

Results

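Galectins and scinderin were followed across 4 cell populations sorted from the mouse intestine. The 6 genes, Lgals1, Lgals2, Lgals3, Lgals4, Lgals9 and Scin, were found by their names in the array files and were covered by 7 of 41174 gene probes, or 6 of 28508 gene symbols, with 2 probes for Lgals4. Scin and Lgals4 were picked by measured values, because they stood far lower in CD24 high cells, so their values in comparisons that hold that group are given as a description without a test. Lgals1, Lgals2, Lgals3 and Lgals9 were listed as family members. All 7 probes stood well above background in the sample channel of all 7 arrays.

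The Dll1 populations came from Dll1-EGFP-ires-CreERT2 mice, in which the promoter of Dll1, a Notch ligand of early secretory cells, drives green fluorescent protein (GFP). Their GFP-high cells were sorted by CD24 as low, medium or high, with 2 biological replicates at each level of this surface protein. The Lgr5 population was 1 sample of GFP-high cells from Lgr5-EGFP-ires-CreERT2 mice, in which the promoter of the stem cell receptor Lgr5 drives GFP. On each array Cy3 marked the sample and Cy5 marked a common reference, RNA of the entire small intestine, so a level is log2 of sample over whole intestine, and its zero is a mixed tissue. No age, sex or treatment is given in the labels, GFP reports promoter activity and can outlast it, and each sorted gate can hold several cell types. In such bulk samples fewer cells of a type and less RNA per cell cannot be told apart. CD24 low was hybridised on slide 2 alone and Lgr5 on slide 1 alone, while CD24 medium and CD24 high had 1 array on each.

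Galectins are lectins that bind beta-galactoside sugars on glycoproteins and glycolipids, and they act both outside and inside the cell. Galectin-1 and galectin-2 have a single type of carbohydrate-binding domain and can form dimers, galectin-3 joins its domain to a repetitive tail, and galectin-4 and galectin-9 hold a pair of different domains in 1 chain. Galectin-4 is abundant in gut epithelium, where it has been tied to lipid rafts and apical delivery of glycoproteins. Scinderin, also called adseverin, is a calcium-dependent protein of the gelsolin family that severs and caps actin filaments, and in bovine chromaffin cells it opens the cortical actin layer before secretion.

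The array probes below are shown because they are the letters that RNA had to bind to be measured. Lgals4 probe 2 (mm9 chr7:29625966-29626217, plus strand) and the Lgals3 probe (mm9 chr14:48004398-48005214, plus strand) are 60 bases long but cover 252 and 817 bases of genome, so each crosses an exon junction. The Lgals9 probe lies at mm9 chr11:78776964-78777023 on the minus strand, and Lgals6, a closely similar tandem copy of Lgals4, has a probe for which the array files used here give no genome position.
Lgals4 probe 2: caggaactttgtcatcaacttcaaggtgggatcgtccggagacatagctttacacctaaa
Lgals3: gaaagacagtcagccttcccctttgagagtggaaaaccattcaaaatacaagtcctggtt
Lgals9: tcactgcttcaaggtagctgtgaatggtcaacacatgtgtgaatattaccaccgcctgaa
Lgals6: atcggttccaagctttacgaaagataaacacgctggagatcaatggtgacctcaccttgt

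The remaining probes are given by position on mm9. Scin was measured at chr12:40786517-40786576 on the minus strand, Lgals4 probe 1 at chr7:29626658-29626717 on the plus strand, Lgals2 at chr15:78681315-78681374 on the minus strand and Lgals1 at chr15:78760566-78760625 on the plus strand.

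The promoters of Scin, Lgals4 and Lgals2, the genes with the widest spread between CD24 levels, are shown as the 250 bases before the RefSeq start on GRCm38.p6, read 5′ to 3′ on the gene's strand. They lie at chr12:40134229-40134478 (minus), chr7:28833544-28833793 (plus) and chr15:78855530-78855779 (minus). Capitals mark matches to 5 motifs searched on both strands, which were TATAAA for the core promoter, TTTATG for the CDX type, AGATAA for the GATA type, CAAAGTCCA for the HNF4 type and CAGATG for an E-box of basic helix-loop-helix factors.
Scin: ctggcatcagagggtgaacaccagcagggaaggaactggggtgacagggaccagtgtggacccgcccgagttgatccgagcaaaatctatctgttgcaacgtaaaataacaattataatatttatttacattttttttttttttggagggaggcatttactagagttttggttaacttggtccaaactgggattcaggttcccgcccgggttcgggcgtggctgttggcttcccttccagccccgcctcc
Lgals4: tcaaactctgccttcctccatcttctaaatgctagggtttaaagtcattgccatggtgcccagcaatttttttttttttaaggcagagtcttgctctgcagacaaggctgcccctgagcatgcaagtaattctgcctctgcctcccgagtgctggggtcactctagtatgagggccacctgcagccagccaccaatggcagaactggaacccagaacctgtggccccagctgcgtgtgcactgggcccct
Lgals2: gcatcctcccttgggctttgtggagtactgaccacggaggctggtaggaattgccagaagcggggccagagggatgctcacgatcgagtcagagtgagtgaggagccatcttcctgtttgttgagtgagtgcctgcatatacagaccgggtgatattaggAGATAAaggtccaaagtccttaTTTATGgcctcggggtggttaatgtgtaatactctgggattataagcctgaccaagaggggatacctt

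In these windows Lgals2 held AGATAA with its first base 90 bases before the start and TTTATG 68 bases before it, while Scin and Lgals4 held none of the 5 motifs. Among 32851 windows of the same length, 9.99% held AGATAA, 10.8% held TTTATG, 12.4% held TATAAA, 14.4% held CAGATG and 0.384% held CAAAGTCCA. The promoters had been read before the motifs were searched. Another 2 motifs, a short HNF1 site and a shortened HNF4 site, were tried after seeing that they occur in the Lgals2 window and were dropped for that reason, which makes 7 tried. The matches are therefore a description of letters. RefSeq promoters were found for 5 of the 6 genes, and the Lgals3 and Lgals9 windows held no match either.

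Scin, the actin-severing member, was above whole intestine in CD24 low and CD24 medium and far below it in CD24 high and Lgr5. Its log2 ratios were 2.26 and 1.75 in CD24 low, 2.20 and 1.39 in CD24 medium, −2.40 and −3.63 in CD24 high, and −4.59 in Lgr5. By these ratios the CD24 low and CD24 medium arrays overlapped, both stood above the CD24 high arrays, and Lgr5 was the lowest. The group means were 2.00 ± 0.36, 1.79 ± 0.57 and −3.01 ± 0.87 from CD24 low to CD24 high (SD, n = 2 each).

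**Figure D1:**
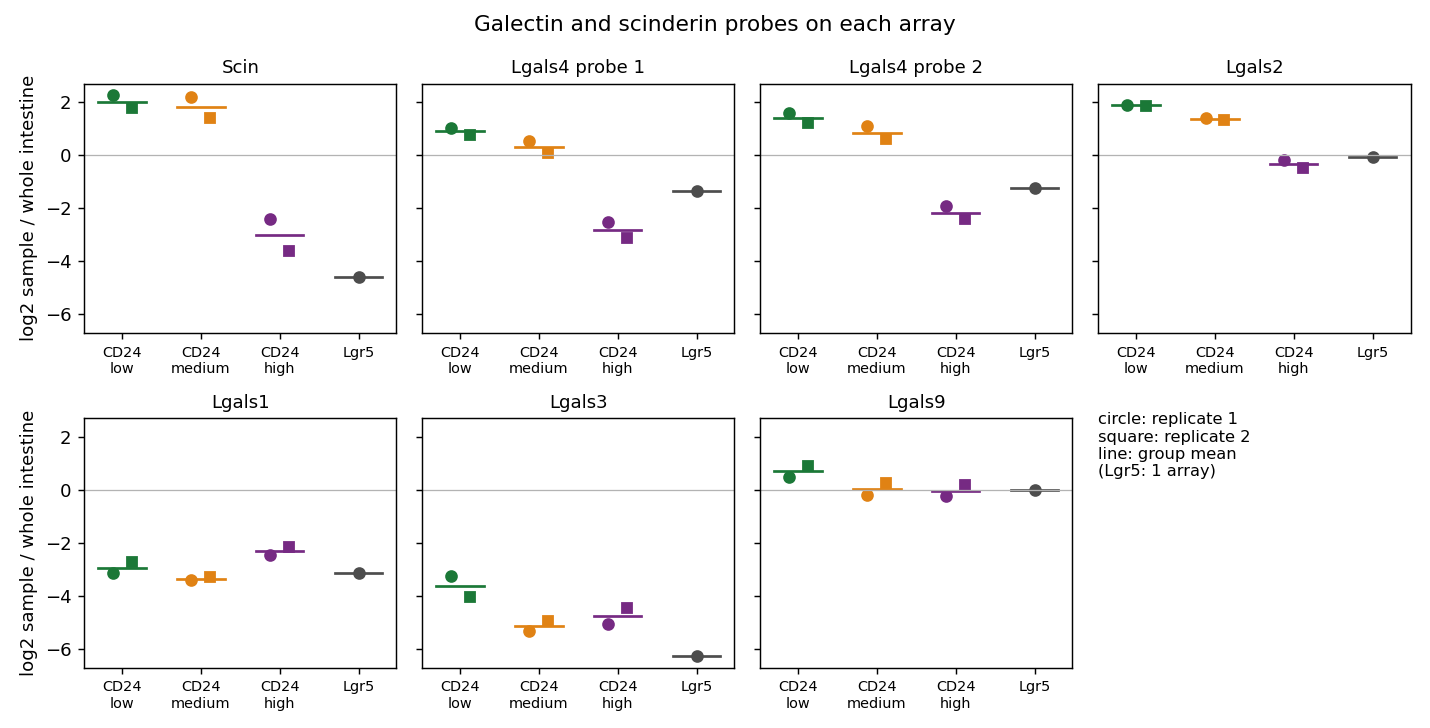
Level of each probe on each array, as log2 of sample over whole small intestine (vertical axis), in CD24 low, CD24 medium, CD24 high and Lgr5 (horizontal axis). Points are arrays and lines are group means. Scin lies at 1.39 to 2.26 on the CD24 low and CD24 medium arrays and at −4.59 to −2.40 on the others, while Lgals9 stays between −0.24 and 0.89.

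Described without a test, Scin was 28.0-fold higher in CD24 medium cells than in CD24 high cells (log2 difference 4.81) and 32.4-fold higher in CD24 low than in CD24 high (5.02). The CD24 high minus Lgr5 difference was 1.58, and it ran from 0.54 to 2.19 over the settings run. The comparisons without CD24 high were not used to pick the gene. Scin was 83.8-fold higher in CD24 medium than in Lgr5 (log2 difference 6.39, SE 0.55, limma with Benjamini-Hochberg adjustment over all probes, adjusted p = 0.0015) and 96.9-fold higher in CD24 low than in Lgr5 (6.60, SE 0.55, limma adjusted p = 0.0011). Between CD24 low and CD24 medium the difference of 0.21 (95% interval −0.85 to 1.27, limma adjusted p = 0.94) did not pass. The raw Cy3 spot intensity was 25279 and 14592 in CD24 low, 26412 and 14048 in CD24 medium, 403 and 144 in CD24 high, and 320 in Lgr5. Before normalisation Lgr5 thus lay between the CD24 high arrays and was not the lowest.

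Lgals4, the tandem-repeat galectin of the gut, took its lowest value in CD24 high with both probes. Probe 1 gave log2 ratios of 1.02 and 0.75 in CD24 low, 0.52 and 0.06 in CD24 medium, −2.53 and −3.12 in CD24 high, and −1.35 in Lgr5. Probe 2 gave 1.57 and 1.20 in CD24 low, 1.08 and 0.58 in CD24 medium, −1.92 and −2.43 in CD24 high, and −1.26 in Lgr5. With either probe no 2 groups overlapped, and the order was CD24 low, CD24 medium, Lgr5 and CD24 high.

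Described without a test, Lgals4 was 8.65-fold higher by probe 1 and 8.02-fold by probe 2 in CD24 medium than in CD24 high, and 13.1-fold and 11.8-fold higher in CD24 low than in CD24 high. The CD24 high minus Lgr5 difference was −1.48 by probe 1 and −0.91 by probe 2. In the comparisons that did not pick it, Lgals4 was 4.69-fold higher in CD24 low than in Lgr5 by probe 1 (log2 difference 2.23, limma adjusted p = 0.0061) and 6.26-fold by probe 2 (2.65, limma adjusted p = 0.0035). It was also higher in CD24 medium than in Lgr5, by 1.63 with probe 1 (limma adjusted p = 0.017) and 2.09 with probe 2 (limma adjusted p = 0.0082). Without medium replicate 1 the probe 1 difference was 1.40 with a limma adjusted p of 0.063. With the sample channel alone in place of the ratio, neither probe passed (1.25 and 1.54, limma adjusted p = 0.056 and 0.058). CD24 low and CD24 medium differed by 0.60 and 0.55, with limma adjusted p = 0.51 and 0.54, so that order did not pass the test.

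Lgals2, a dimer-forming galectin of the digestive tract, fell into the same broad order, and it was not among the genes picked by value. Its log2 ratios were 1.89 and 1.83 in CD24 low, 1.40 and 1.31 in CD24 medium, −0.18 and −0.51 in CD24 high, and −0.09 in Lgr5. By these ratios CD24 low and CD24 medium stood above whole intestine and did not overlap, while CD24 high and Lgr5 lay close to it. The raw Cy3 spot intensity set CD24 high and Lgr5 apart, at 7761 and 6136 against 55059. It was 100750 and 77262 in CD24 low and 75752 and 72224 in CD24 medium. Lgals2 was 4.61-fold higher in CD24 low than in CD24 high (log2 difference 2.21, SE 0.17, limma adjusted p = 0.00047) and 3.24-fold higher in CD24 medium cells than in CD24 high cells (1.70, SE 0.17, limma adjusted p = 0.0016). It was 3.87-fold higher in CD24 low than in Lgr5 (limma adjusted p = 0.0025) and 2.72-fold higher in CD24 medium than in Lgr5 (limma adjusted p = 0.0071). The difference of 0.51 between CD24 low and CD24 medium (95% interval 0.10 to 0.92, limma adjusted p = 0.40) and that of −0.25 between CD24 high and Lgr5 (−0.76 to 0.25, limma adjusted p = 0.41) did not pass. The second ran from −0.84 to 0.02 over the settings run. With the sample channel alone, Lgals2 was called lower in CD24 high than in Lgr5 (limma adjusted p = 0.011).

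Lgals1, a dimer-forming galectin best known from mesenchyme and immune cells, lay below whole intestine on every array and by normalised ratio was highest in CD24 high. Its log2 ratios were −3.16 and −2.73 in CD24 low, −3.42 and −3.28 in CD24 medium, −2.45 and −2.16 in CD24 high, and −3.15 in Lgr5. By these ratios the CD24 high arrays stood above all others. The raw Cy3 spot intensity, before normalisation, was instead lowest in CD24 high, at 219 and 227. It was 301 and 351 in CD24 low, 303 and 328 in CD24 medium, and 371 in Lgr5. Lgals1 was 2.06-fold lower in CD24 medium than in CD24 high (log2 difference −1.04, SE 0.20, limma adjusted p = 0.017), and the call was lost without medium replicate 1, medium replicate 2 or high replicate 2 (limma adjusted p = 0.095, 0.075 and 0.087). On slide 2 alone the difference was −1.11 with a limma adjusted p of 0.10. It was 1.79-fold higher in CD24 high than in Lgr5 (0.84, limma adjusted p = 0.040), with the call lost without either high replicate or either medium replicate (0.052 to 0.13). Lgals1 was called higher in CD24 high than in Lgr5 in 9 of 21 settings tested, so that result depended on the processing. The losses also included Agilent's processed signals, the sample channel alone, an intensity trend and slide as a term. That difference ran from 0.29 to 0.99 over the 22 settings run. The CD24 low minus CD24 high difference of −0.64 did not pass (limma adjusted p = 0.082). Mesenchyme marker genes, 5 of 5 measured, averaged −3.07 and −2.51 in CD24 low, −3.05 and −2.50 in CD24 medium, −2.89 and −2.49 in CD24 high, and −4.31 in Lgr5. The list did not move as 1 group, since 1 marker was higher and 3 lower in CD24 medium against CD24 high (median −1.23). Over all probes 6.81% were higher and 12.1% lower. Vim averaged −2.48 in CD24 low, −0.66 in CD24 medium and −3.88 in CD24 high, and Acta2 −0.37, −0.61 and −0.67. Of the 3 Dll1 groups, Col1a1 (−3.72, −4.37 and −3.15), Col3a1 (−4.09, −4.63 and −3.40) and Tagln (−3.31, −3.60 and −2.34) were, like Lgals1, lowest in CD24 medium and highest in CD24 high. Unlike Lgals1, they were lower still in Lgr5, at −4.84, −5.11 and −4.41. Immune markers, 5 of 6 measured, averaged −1.81 and −1.66, −1.65 and −1.50, −0.37 and −0.15, and −1.99 in the same order of groups. Of these, Lyz2, a lysozyme gene, was at 4.48 and 4.72 in CD24 high and between −3.31 and −0.48 elsewhere. The part of either list in the Lgals1 values was not tested.

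Lgals3, the galectin with a repetitive tail, which is abundant in villus enterocytes, lay below whole intestine on every array and by normalised ratio was lowest in Lgr5. Its log2 ratios were −3.26 and −4.03 in CD24 low, −5.32 and −4.94 in CD24 medium, −5.08 and −4.47 in CD24 high, and −6.28 in Lgr5. By these ratios CD24 low lay above the other groups, CD24 medium and CD24 high overlapped, and Lgr5 was lowest. The raw Cy3 spot intensity was 1523 and 660 in CD24 low and 372 and 447 in CD24 medium. It was 162 and 181 in CD24 high, below the 219 in Lgr5. Lgals3 was 6.24-fold higher in CD24 low than in Lgr5 (log2 difference 2.64, SE 0.39, limma adjusted p = 0.0069) and 2.85-fold higher in CD24 high than in Lgr5 (1.51, SE 0.39, limma adjusted p = 0.026), the second of which was lost without high replicate 2 (limma adjusted p = 0.090). The difference of 1.49 between CD24 low and CD24 medium (95% interval 0.72 to 2.25, limma adjusted p = 0.24) did not pass. Nor did those of 1.13 between CD24 low and CD24 high (limma adjusted p = 0.059) and 1.15 between CD24 medium and Lgr5 (limma adjusted p = 0.091). Between CD24 low and CD24 high, Lgals3 was called in 6 of 24 settings tested, so that result depended on the processing. The CD24 high against Lgr5 call of Lgals3 also depended on it, and held in 15 of 21 settings tested. Besides high replicate 2, the losses included Agilent's processed signals, the sample channel alone and an intensity trend. That difference ran from 0.39 to 1.82 over the 22 settings run. Enterocyte markers, 6 of 6 measured, averaged −3.10 and −4.06 in CD24 low, −4.38 and −4.18 in CD24 medium, −4.57 and −4.47 in CD24 high, and −5.62 in Lgr5. The list did not move as 1 group, since 2 markers were higher and 2 lower in CD24 medium against CD24 high. Over all probes 6.81% were higher and 12.1% lower. From CD24 low to CD24 high, Alpi (−2.43, −3.17 and −1.69) and Apoa1 (−3.57, −4.38 and −2.89) were highest in CD24 high. Fabp2 (−3.27, −3.96 and −5.54), Krt20 (−2.10, −2.93 and −5.67) and Sis (−4.79, −4.30 and −5.44) were lowest there. Fabp1 (−5.32, −6.91 and −5.91) was lowest in CD24 medium. The part of these markers in the Lgals3 values was not tested.

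Lgals9, a tandem-repeat galectin that binds glycans on immune cells, by normalised ratio stayed close to whole intestine in all groups. Its log2 ratios were 0.48 and 0.89 in CD24 low, −0.19 and 0.25 in CD24 medium, −0.24 and 0.18 in CD24 high, and −0.01 in Lgr5. By these ratios CD24 low stood above the rest, which overlapped. The raw Cy3 spot intensity, before normalisation, was instead lowest in CD24 high, at 413 and 522. It was 1659 and 1603 in CD24 low, 1062.9 and 1324.5 in CD24 medium, and 1623 in Lgr5. None of its 6 comparisons passed, and the widest difference was 0.72 between CD24 low and CD24 high (95% interval 0.13 to 1.30, limma adjusted p = 0.099).

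The slides gave like values where both groups were on them. The CD24 medium minus CD24 high difference on slide 1 and slide 2 was 4.60 and 5.02 for Scin, 3.04 and 3.18 for Lgals4 probe 1, 1.58 and 1.82 for Lgals2, and −0.97 and −1.11 for Lgals1. On slide 1, CD24 medium exceeded Lgr5 by 6.79 for Scin, 1.86 for Lgals4 probe 1 and 1.49 for Lgals2, with 1 array each. CD24 low and Lgr5 shared no slide. With slide as a term in the limma fit, their differences were 7.61 for Scin (adjusted p = 0.0030), 2.76 for Lgals4 probe 1 (adjusted p = 0.0078), 2.16 for Lgals2 (adjusted p = 0.011) and 2.14 for Lgals3 (adjusted p = 0.041).

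**Figure D2:**
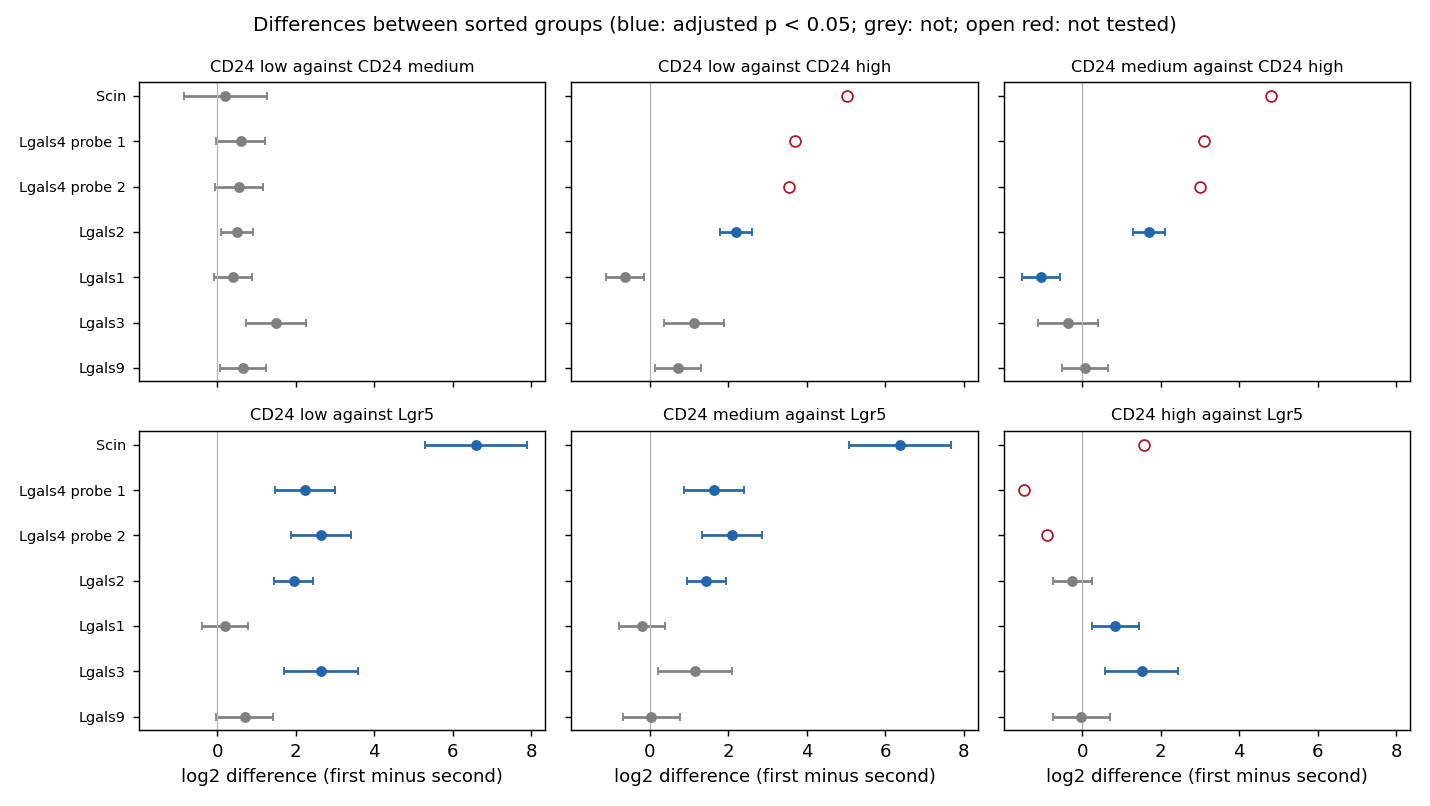
Log2 difference of each probe in the 6 comparisons (horizontal axis, first group minus second). Filled points carry 95% intervals of the limma fit, blue where the adjusted p is under 0.05 and grey otherwise, and open red points are the untested values of Scin and Lgals4 in comparisons with CD24 high. Scin lies at 6.60 and 6.39 in the 2 tested comparisons with Lgr5.

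Counted by gene, with each gene taken at its brightest probe, the tested calls were as follows. Of the 4 listed galectins other than Lgals4, Lgals2 was higher and Lgals1 lower in CD24 medium than in CD24 high, where 6.81% of all 24495 probes were called higher and 12.1% lower. Lgals2 was the 1 call, higher, in CD24 low against CD24 high, with 5.97% of probes higher and 9.57% lower. Lgals1 and Lgals3 were higher in CD24 high than in Lgr5, with 19.8% of 24405 probes higher and 13.6% lower so calls were common among all probes. Against Lgr5, 3 of the 6 genes were higher in CD24 medium (Scin, Lgals4 and Lgals2; background 9.77% higher and 7.96% lower), and 4 were higher in CD24 low than in Lgr5 (Scin, Lgals4, Lgals3 and Lgals2; 11.7% higher and 9.07% lower). The comparisons share groups and are not independent of each other. In CD24 low against CD24 medium 0 of 6 genes passed in limma, where 0% of probes were higher and 0.0857% lower. At an unadjusted p under 0.05 there were 2509 such probes, with Lgals3, Lgals2 and Lgals9 among them.

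The rest of the galectin family, from a list of 7 of which 6 were measured, split in the same comparisons. Lgals6, the copy of Lgals4, had log2 ratios of 2.56 and 1.64 in CD24 low, 2.13 and 1.12 in CD24 medium, −1.03 and −2.16 in CD24 high, and −0.83 in Lgr5, close to the pattern of Lgals4. It was higher in CD24 medium cells than in CD24 high cells by 3.22 and in CD24 low than in CD24 high by 3.69. These values are given as a description, because RNA of either copy may bind the probe of the other. Lgals4 was picked by its values in CD24 high, so Lgals6 is not free of that choice. Lgals12 was lower in CD24 medium than in CD24 high by 0.89 (log2 difference −0.89, limma adjusted p = 0.036), and in CD24 low than in CD24 high (−0.90, limma adjusted p = 0.039). Lgals8 was higher than in Lgr5 by 0.84 in CD24 low, 0.78 in CD24 medium and 0.62 in CD24 high (limma adjusted p = 0.022, 0.030 and 0.038), and none of these passed with Agilent's processed signals (0.073, 0.092 and 0.23). Over the 6, 1 (Lgals6) was called higher and 1 lower in CD24 medium against CD24 high. The median was 0.32, against 0.0032 over all probes, of which 6.81% were higher and 12.1% lower. In CD24 low against CD24 high 2 (Lgals6 and Lgalsl) were called higher and 1 lower. The median there was 0.23, against 0.020, with 5.97% of all probes higher and 9.57% lower. The Lgals6 calls in these counts are not independent of the choice of Lgals4.

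The gelsolin family, to which Scin belongs, did not move as 1 group. Gsn, gelsolin itself, which severs and caps filaments, had log2 ratios of 0.59 and −0.10 in CD24 low, −0.56 and −1.03 in CD24 medium, −2.73 and −2.85 in CD24 high, and −3.82 in Lgr5. It was higher in CD24 low than in CD24 high by 3.04 (limma adjusted p = 0.00084) and in CD24 medium than in CD24 high by 1.99 (limma adjusted p = 0.0050). Vill, a villin-like relative, ran the other way, with −0.98 and −2.08 in CD24 low, −1.77 and −1.59 in CD24 medium, 0.90 and 0.36 in CD24 high, and −2.05 in Lgr5.

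Vill was lower in CD24 medium than in CD24 high (log2 difference −2.31, limma adjusted p = 0.0083) and in CD24 low than in CD24 high (−2.16, limma adjusted p = 0.010). Capg, which caps filaments without severing them, was lower in CD24 medium than in CD24 high (log2 difference −0.95, limma adjusted p = 0.036), a call lost with processed signals (adjusted p = 0.081) and with the sample channel alone (adjusted p = 0.071). Of the 7 family genes besides Scin, 1 was higher and 2 lower in CD24 medium against CD24 high (median 0.12, with 6.81% of all probes higher and 12.1% lower), 1 was higher and 1 lower in CD24 low against CD24 high (median 0.0032, with 5.97% and 9.57% of all probes), and 0 passed in CD24 low against CD24 medium. Vil1, villin of the microvilli, and Avil, advillin, were higher than in Lgr5 in all 3 Dll1 groups, with differences of 0.85 to 1.16 (limma adjusted p = 0.0052 to 0.028) and 1.19 to 1.85 (limma adjusted p = 0.0062 to 0.022). The Vil1 call in CD24 medium was lost with processed signals (adjusted p = 0.060), and those of Vil1 in CD24 medium and CD24 high and of Avil in CD24 low were lost with the sample channel alone (adjusted p = 0.069, 0.18 and 0.074).

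**Figure D3:**
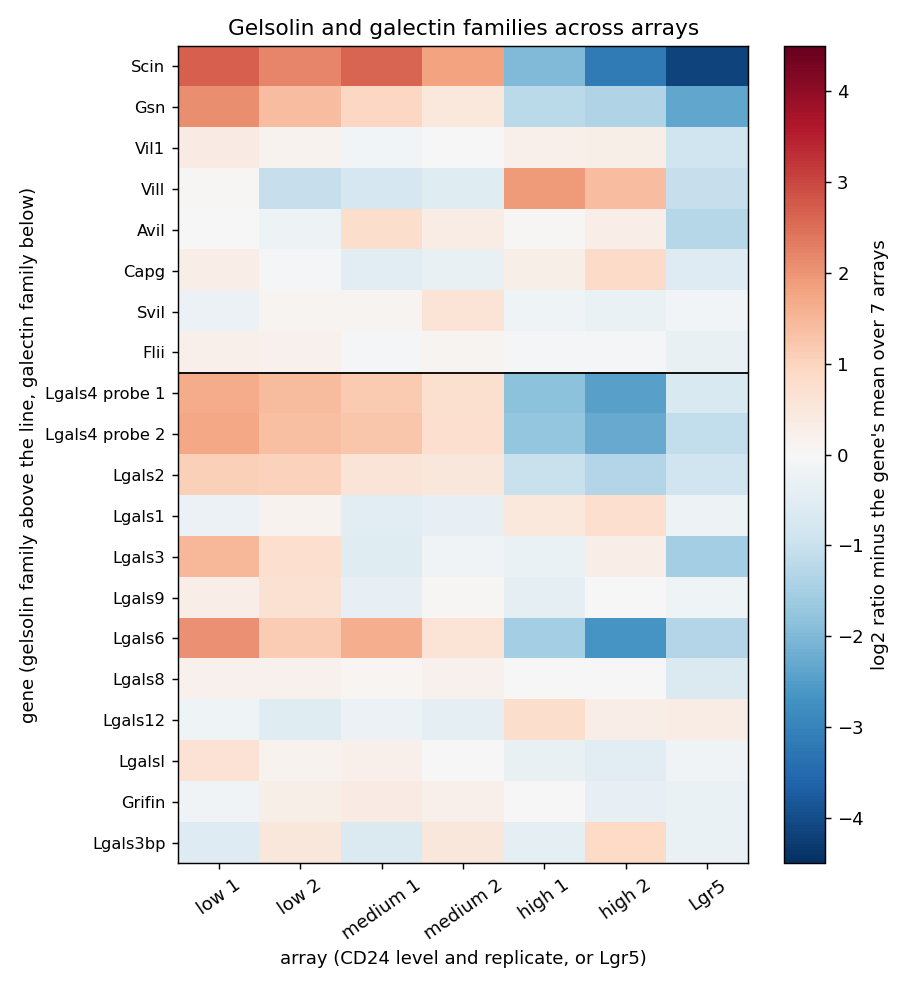
Log2 ratio of each gene on each array minus the gene's own mean over 7 arrays (colour), with the gelsolin family above the black line and the galectin family below it. Scin, Gsn, Lgals4, Lgals2 and Lgals6 are above their mean on the CD24 low and CD24 medium arrays and below it on the CD24 high and Lgr5 arrays, and Vill is highest in CD24 high.

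Other actin genes were called in both directions. Of 9 further severing, capping and depolymerising factors, 0 were higher and 1, Capza2, a subunit of capping protein, lower in CD24 medium against CD24 high (−0.95, limma adjusted p = 0.011), where 6.81% of all probes were higher and 12.1% lower. In CD24 low against CD24 high, Dstn, which depolymerises actin, was higher (0.81, limma adjusted p = 0.032) and Capza2 lower (−0.78, limma adjusted p = 0.022), with 5.97% of all probes higher and 9.57% lower.

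Of 8 brush border genes, 1 was higher and 2 lower in CD24 medium against CD24 high, where 6.81% of all probes were higher and 12.1% lower. In CD24 low against CD24 high 2 were higher and 2 lower, with 5.97% of all probes higher and 9.57% lower. The bundling and capping factors Espn (−1.68) and Eps8 (−1.38) were lower and the motor Myo1a higher (0.76) in CD24 medium against CD24 high, with limma adjusted p = 0.0036, 0.0036 and 0.049. In CD24 low against CD24 high, Espn (−1.55) and Eps8 (−0.93) were lower and Myo1a (1.27) and the bundling protein Pls1 (1.03) higher, with limma adjusted p = 0.0044, 0.014, 0.0099 and 0.033. The Eps8 calls were lost with the sample channel alone (adjusted p = 0.16 and 0.10), as was that of Capza2 in CD24 low (adjusted p = 0.085), and the Myo1a call in CD24 medium was lost with processed signals (adjusted p = 0.056). In CD24 medium against CD24 high the median was −0.12 over the 9 factors and −0.092 over the 8 brush border genes, against 0.0032 over all probes.

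Of 11 enzymes that branch and galactosylate the N-glycans bound by galectins, 1 was higher and 2 lower in CD24 medium against CD24 high (median −0.22), shares near the 6.81% and 12.1% over all probes, and 1 of the lower calls, Mgat4a, was lost with processed signals (adjusted p = 0.064). B4galt1, which adds galactose to N-glycans, was lower in CD24 medium (−1.47, limma adjusted p = 0.0032) and in CD24 low (−1.60, limma adjusted p = 0.0019) than in CD24 high, and B4galt4 was higher (0.64 and 1.07, limma adjusted p = 0.028 and 0.0046). In CD24 low against CD24 medium 0 of the 11 passed in limma.

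Among 13837 genes searched, those nearest to Scin by the root mean square difference of mean-centred log2 ratios over the 7 arrays were Fcgbp (0.61), Zg16 (0.72), Rgs2 (0.77), Serpina1d (0.93) and Krt20 (0.99). Fcgbp and Zg16 are goblet cell genes and Krt20 is a keratin of differentiated epithelium. Nearest to Lgals4 were Lgals6 (0.38), E2f2 (0.47), Trim31 (0.47), Isx (0.51) and Cx3cl1 (0.52).

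**Figure D4:**
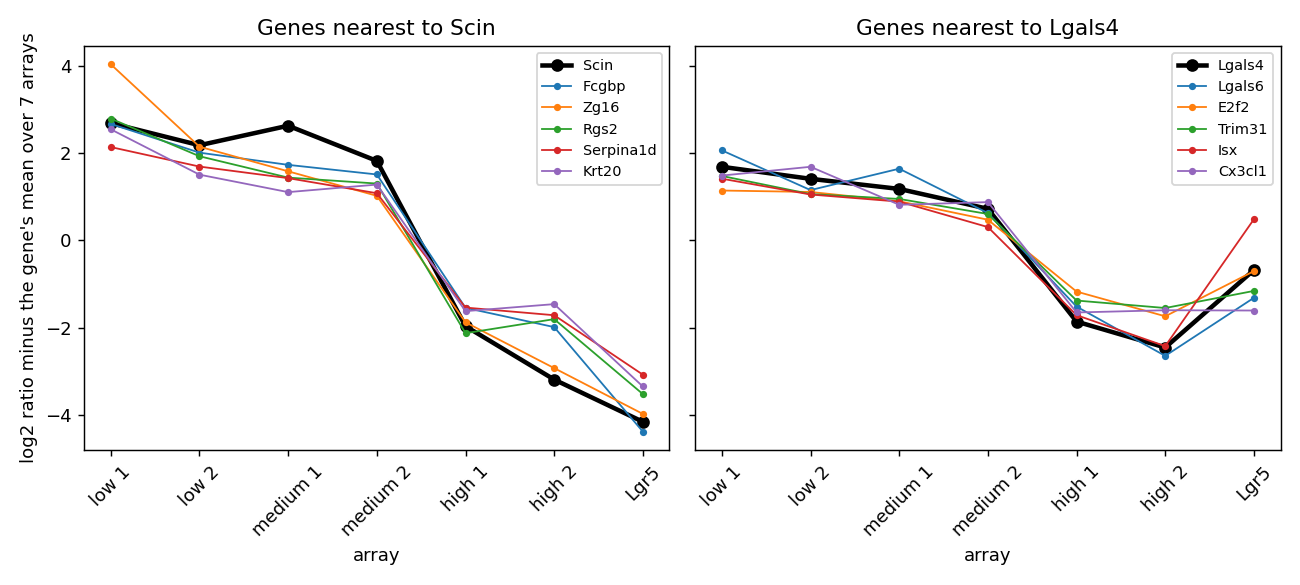
Log2 ratio minus the gene's mean over 7 arrays (vertical axis) on each array (horizontal axis) for Scin and Lgals4 (black) and the 5 genes nearest to each (colours). Lines join the arrays only to guide the eye, and the likeness was used to choose the genes.

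Marker lists differed between the groups. Goblet markers, 6 of 6 measured, averaged 3.68 and 2.67 in CD24 low, 2.57 and 1.85 in CD24 medium, 0.55 and −0.30 in CD24 high, and −3.63 in Lgr5. Of the 6, 4 were higher in CD24 medium than CD24 high and 2 did not pass, where 6.81% of all probes were higher and 12.1% lower. Muc2 averaged 2.65, 1.75 and 2.49 and Spdef 3.65, 3.49 and 3.60 from CD24 low to CD24 high, unlike Scin. Paneth markers, 5 of 5 measured, averaged −3.10 and −3.09 in CD24 low, −0.51 and −0.52 in CD24 medium, 5.52 and 5.65 in CD24 high, and −3.79 in Lgr5, and enteroendocrine markers were highest in CD24 medium, at 3.14 and 4.47. The part of cell type in the values of Scin and the galectins was not tested.

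**Figure D5:**
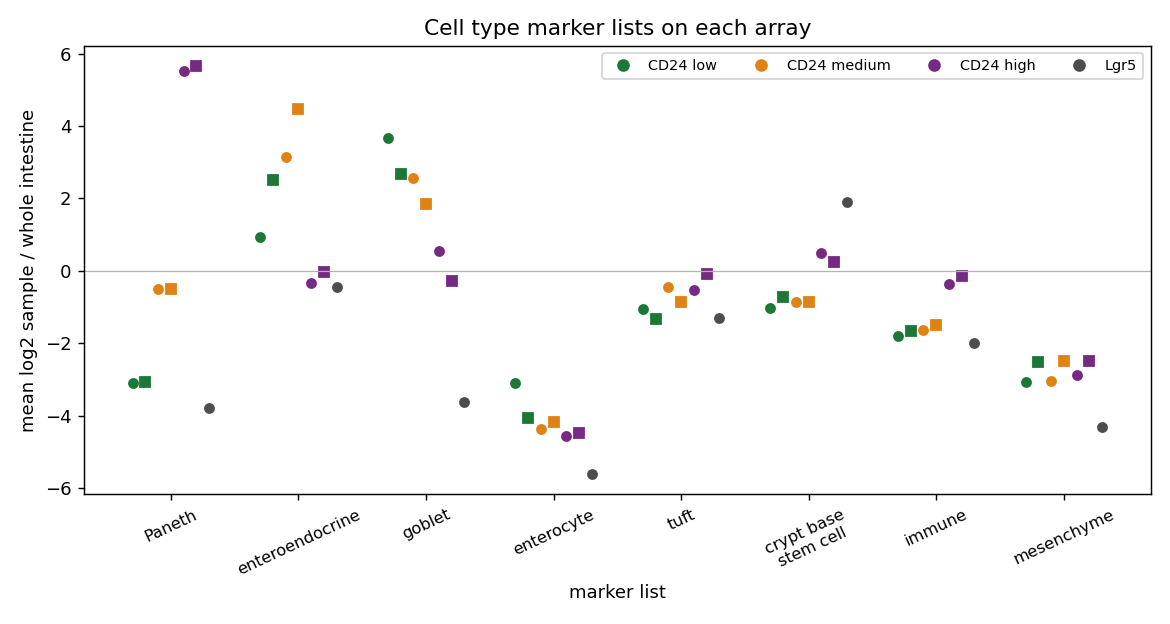
Mean log2 ratio of each marker list (horizontal axis) on each array, with circles for replicate 1 and squares for replicate 2. Paneth markers are highest in CD24 high, at 5.52 and 5.65, goblet markers in CD24 low, at 3.68 and 2.67, and stem cell markers in Lgr5, at 1.89.

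Sample signal was well above background on 42.5 and 44.4% of spots in CD24 high and on 52.8 to 60.5% elsewhere, and replicates correlated at 0.90 to 0.93 across probes. P-values rest on the spread between 2 arrays a level and assume that the single Lgr5 array varies like the others, and the array number limits their precision.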

How the data were processed

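RNA of 6 Dll1 samples and 1 Lgr5 sample was hybridised to dual-colour Agilent arrays with whole small intestine RNA as common reference, per the labels' protocols. Deposited scanner output gives each spot's signal and background intensity per channel, made with Agilent Feature Extraction 10.5.1.1 per the file headers, and a log10 ratio column of Cy5 over Cy3. In the series matrix as deposited, the log10 ratios equal this column with the opposite sign (differing by at most 5e-06), and the authors' scale was otherwise not described in the sources used here. From the deposited intensity values, log2 ratios of sample over reference were computed here.

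Mean signals were corrected by normexp (offset 50) and normalised within arrays by loess (span 0.3) in limma 3.58.1 under R 4.3.3 with data.table (version 1.17.8). Figures used matplotlib 3.10.9 under Python 3.11.15. Probes well above background in the sample channel on at least 2 of 7 arrays were kept (24495 of 41174). Control spots were left out. The linear model had a mean for each group over all arrays, giving 3 residual and 3.8 prior degrees of freedom, with Benjamini-Hochberg adjustment over all probes and a threshold of 0.05. Of all probes 26918 were named through RefSeq accessions and 14256 kept the array's name. The median sample intensity was 77.6 to 107.5, with 0 saturated spots. The array files give coordinates on mm9.

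Groups came from the labels. Every probe of the 6 genes was named, and a gene with several probes was counted by its brightest. Other genes come from pathway and marker lists, or are the 5 nearest in pattern to Scin and Lgals4. Members and lists were chosen with earlier results of these data known. Replicate numbers were not used to pair the samples in the main fit. Correlations of replicate deviations were 0.46 (low and medium), −0.0089 (low and high) and 0.30 (medium and high), which does not settle whether replicates were paired. The alternatives were other background corrections and scalings, the series matrix, filters, slide and replicate blocks, a fit without the other groups, a trend on intensity and leaving out each array.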

Additional observations from a re-analysis of the deposited data

How the results depend on the processing

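Direction and call of Scin in CD24 low against Lgr5 (5.91 to 7.61) and of Lgals2 in CD24 low against CD24 high (2.04 to 2.95) held under all alternatives run, and no called difference of a member reversed. The number of galectins other than Lgals4 called in CD24 medium against CD24 high was 2, and it was 1 with Agilent's processed signals, the sample channel alone, the series matrix and slide 2 alone, and 1 to 2 when arrays were left out; in each case Lgals1 was lost, and the cause was not tested. In CD24 low against CD24 high it was 1, against 2 with no background subtraction, processed signals, the sample channel alone, the series matrix and a filter on all 7 arrays, and 1 to 2 with arrays left out. In CD24 high against Lgr5 it was 2, against 1 with no background subtraction, slide as a term or the compared groups alone, 0 with an offset of 16, processed signals, the series matrix or an intensity trend, 1 (Lgals2, lower) with the sample channel alone, and 0 to 2 with arrays left out. Counts in CD24 medium against Lgr5 (3) and CD24 low against Lgr5 (4) stayed within 2 to 4 and 3 to 4. With the replicate number as a block, 3 galectins were called in CD24 low against CD24 high, and 37 of all probes were lower in CD24 low against CD24 medium, against 21. Whether replicate numbers pair these samples was not settled.

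The split of all probes depended on the scaling. In CD24 medium against CD24 high 1668 were higher and 2962 lower, against 4133 and 2762 with processed signals and 2817 and 2362 with the sample channel alone. In CD24 low against CD24 high 1462 were higher and 2345 lower, against 4694 and 2938, and 3046 and 2632. In CD24 high against Lgr5 4837 were higher and 3326 lower, against 4124 and 5601, and 3321 and 4865. Processed signals moved the median of all probes to 0.24, 0.27 and −0.19 in these 3 comparisons. Slide 2 alone gave 577 higher and 1119 lower in CD24 medium against CD24 high, and slide as a term gave 1310 and 631 in CD24 low against Lgr5, where 2859 and 2213 were called. With the sample channel alone, 1534 were higher and 2110 lower in CD24 medium against Lgr5 (2384 and 1942 otherwise), and 1864 and 2815 in CD24 low against Lgr5. Leaving out medium replicate 2 gave 359 higher and 1093 lower in CD24 medium against CD24 high, and leaving out low replicate 2 gave 660 and 1340 in CD24 low against CD24 high. Lgals3 in CD24 low against Lgr5 missed the threshold with an intensity trend (limma adjusted p = 0.057). Calls in the pathway lists depended on the scaling too: with processed signals or the sample channel alone, 4 of 12 were lost in CD24 medium against CD24 high, 2 of 13 in CD24 low against CD24 high, 9 of 18 in CD24 low against Lgr5 (1 of them at an adjusted p of 0.050), 8 of 12 in CD24 medium against Lgr5 and 8 of 16 in CD24 high against Lgr5. The share of spots above background was smallest in CD24 high, and its effect on dim genes was not tested.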
